A study of Mus musculus with 9 samples.

Results

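The data described here are the libraries of cells sorted on a single marker from the third ventricular zone, the germinal tissue around the third ventricle of the mouse brain: 3 Nestin+ and 3 CD133+ libraries, 6 of the 9 libraries in the series. Members were chosen by their labelled cell population, and each Nestin+ library was set against the CD133+ library of the same sort number, which the labels also give as a passage number. All cells came from untreated Nestin-CFPnuc mice on a C57/BL6 background on postnatal day 1, whose reporter is a cyan fluorescent protein in the nucleus under control of the Nestin promoter. Nestin+ cells were gated on that reporter and CD133+ cells on the surface protein encoded by Prom1. Whether either single-marker gate excluded the other marker is not stated in the labels. Nothing there says that the 3 sorts used separate animals, so a p-value speaks only of the spread among these libraries, and that spread could be technical. Values are depth-scaled read counts (CPM), a unit inferred from the deposited table, and libraries are called by group and sort number.

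Nestin is an intermediate filament protein of neural stem and progenitor cells, and a transgenic Nestin promoter is active in radial glia and in many of their immediate descendants. CD133, or prominin-1, is a cholesterol-binding membrane protein that sits on protrusions such as microvilli and the primary cilium, and it is found on the apical surface of neuroepithelial, radial glial and ependymal cells and also outside the neural lineage. The wall of the third ventricle holds multiciliated ependymal cells, whose beating cilia move cerebrospinal fluid, and tanycytes, radial-glia-like cells that line its ventral part and reach into the hypothalamus.

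Each marker's own transcript was higher in the cells sorted on it. In Nestin+ sorts 1, 2 and 3, Prom1 (GRCm38, chromosome 5, 43993620 to 44102032) had 58.1, 39.3 and 55.8 CPM, and in the CD133+ sorts it had 146, 182 and 179 CPM. Nes (chromosome 3, 87971078 to 87980451) stood at 195, 157 and 166 CPM in Nestin+ and at 39.5, 56.9 and 57.3 CPM in CD133+ libraries. Neither gene's groups overlapped, and each marker's transcript was still read in the other group. The exact two-sided permutation test over libraries gave p = 0.1 for each gene and the exact sign-flip test over sorts gave p = 0.25, the smallest values that 3 libraries against 3 and 3 pairs allow. These genes chose the cells, so the differences only check the labels.

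The 6 libraries were of similar depth. One read was worth 0.0285 to 0.0344 CPM, so 3 reads stood at 0.0856 to 0.103 CPM. Mitochondrial transcripts took 1.48% to 3.99% of the listed values. Principal component 1 carried 64.3% of the variance, and along it the Nestin+ libraries lay at -61.6 to -53.7 and the CD133+ libraries at 46.2 to 79.5. The next component, with 20.01%, set both libraries of sort 1 (48.8 and 44.0) apart from the other 4 (-28.3 to -10.3). Over all genes, though genes are no independent replicates, libraries of a group correlated at r = 0.935 to 0.964 and the pairs of a sort at 0.912, 0.817 and 0.876, lowest in sort 2.

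Of 15716 genes that reached 1 CPM in at least 3 of the 6 libraries, 4162 (26.5%) differed between the groups at an adjusted p under 0.05 in limma with sort number as a block. In Nestin+ cells 1462 genes (9.30%) were higher and 2700 (17.2%) lower. Changes are given as log2 ± the moderated SE of this fit, on the log2(CPM + 1) scale, Nestin+ minus CD133+. This scale understates the change of low genes. The limma SE and p-values use variances pooled with those of other genes, so the SE is not the observed error between sorts. For Ccna1, with an SE of 0.57, the log2 ratios in sorts 1, 2 and 3 were -5.69, -8.02 and -4.46. The lower side held the larger changes: 699 genes were lower and 117 higher by more than 2, and 86 were lower and 5 higher by more than 4. The sign was the same in all 3 sorts for 57.9% of all genes and for 4139 of the 4162 called ones. Groups did not overlap for 33.2% of all genes, 11.9% higher and 21.3% lower in Nestin+, and for 3578 of those called. In the authors' deposited table, 310 genes were higher and 1352 lower at a step-up rate under 0.05. Of these, 307 and 1322 had the same call here and 0 the opposite one.

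The balance between directions depended on scaling and the number of calls on sort 2. Median centring gave 2201 higher and 2267 lower genes and quantile normalization 1992 and 2127, while moving the median of all genes from -0.02 to 0.12 and 0.13 on the log2 scale. Without both libraries of sort 2 the counts were 691 and 1802, and without the block they were 639 and 1906. Of the calls without sort 2, 680 and 1788 were among those above, as were all of those without the block. No called gene was called in the opposite direction in any fit tried.

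The 15 largest rises in Nestin+ cells, among called genes with separate groups, included 4 genes of the oligodendrocyte lineage lists, Gpr17, Pdgfra, Sox10 and Lhfpl3, and the tanycyte list gene Frzb. Gpr17, a receptor of committed oligodendrocyte precursors, stood at 186, 207 and 83.0 CPM in Nestin+ and at 5.60, 3.71 and 2.52 CPM in CD133+ libraries, a change of 4.96 ± 0.23. Plppr1, a membrane protein linked to neurite growth (chromosome 4, 49059273 to 49340259), stood at 76.9, 84.7 and 63.8 CPM against 3.88, 3.11 and 2.53 CPM (4.19 ± 0.22). For both genes every Nestin+ library lay far above every CD133+ library. Cntn1, a contactin of axons and precursors, changed by 4.17 ± 0.27, Pcdh15, a cadherin, by 4.15 ± 0.40 and Zdhhc22, a palmitoyltransferase, by 4.18 ± 0.33. Inka2, Brinp3, St8sia3, which encodes a sialyltransferase, Lrrtm3, which encodes a synaptic leucine-rich repeat protein, Pcdh11x and Vxn changed by 3.42 to 3.90.

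Of the 15 largest falls 8 were on the vessel, fibroblast and macrophage lists. Cldn5, the main claudin of brain endothelial tight junctions (chromosome 16, 18776847 to 18778262), stood at 1.03, 0.130 and 0.0618 CPM in Nestin+ and at 187, 207 and 321 CPM in CD133+ libraries (-7.43 ± 0.31). In Nestin+ sort 3 that is below the level of 3 reads. Dcn, which encodes the matrix proteoglycan decorin, stood at 0.172, 0.359 and 0.308 CPM against 64.5, 110 and 189 CPM (-6.45 ± 0.29). No Nestin+ value of either gene came near any CD133+ value. Esam, Eng, Cxcl12, Vtn, Rgs5, Igf2, Vwa1, Pf4, Mrc1 and Slc40a1, the iron exporter ferroportin, were lower by between 5.56 and 6.25 on this scale. Crip3 (-6.20 ± 0.35), Ccna1 (-6.05 ± 0.57) and the homeobox gene Dlx4 (-5.73 ± 0.34) made up the rest, and each had its highest value in CD133+ sort 2. Ccna1, a cyclin A known from germ cells and multiciliated cells, stood at 1.65, 0.945 and 9.74 CPM in Nestin+ and at 136, 502 and 235 CPM in CD133+ libraries. The calls of Ccna1 and Rgs5 were lost without sort 1.

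To describe cell types, 30 gene lists with 597 genes were used, with 13 genes on 2 lists. Of these genes 447 had deposited values and 434 passed the filter on low values. A gene passed this filter if a single group expressed it, so counts over the tested genes describe those genes and not whole lists. Of all tested genes 9.30% were called higher in Nestin+ and 17.2% lower. Every list count below is to be read beside these shares. In bulk libraries, fewer cells of a type and less RNA per cell cannot be told apart.

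**Figure D1:**
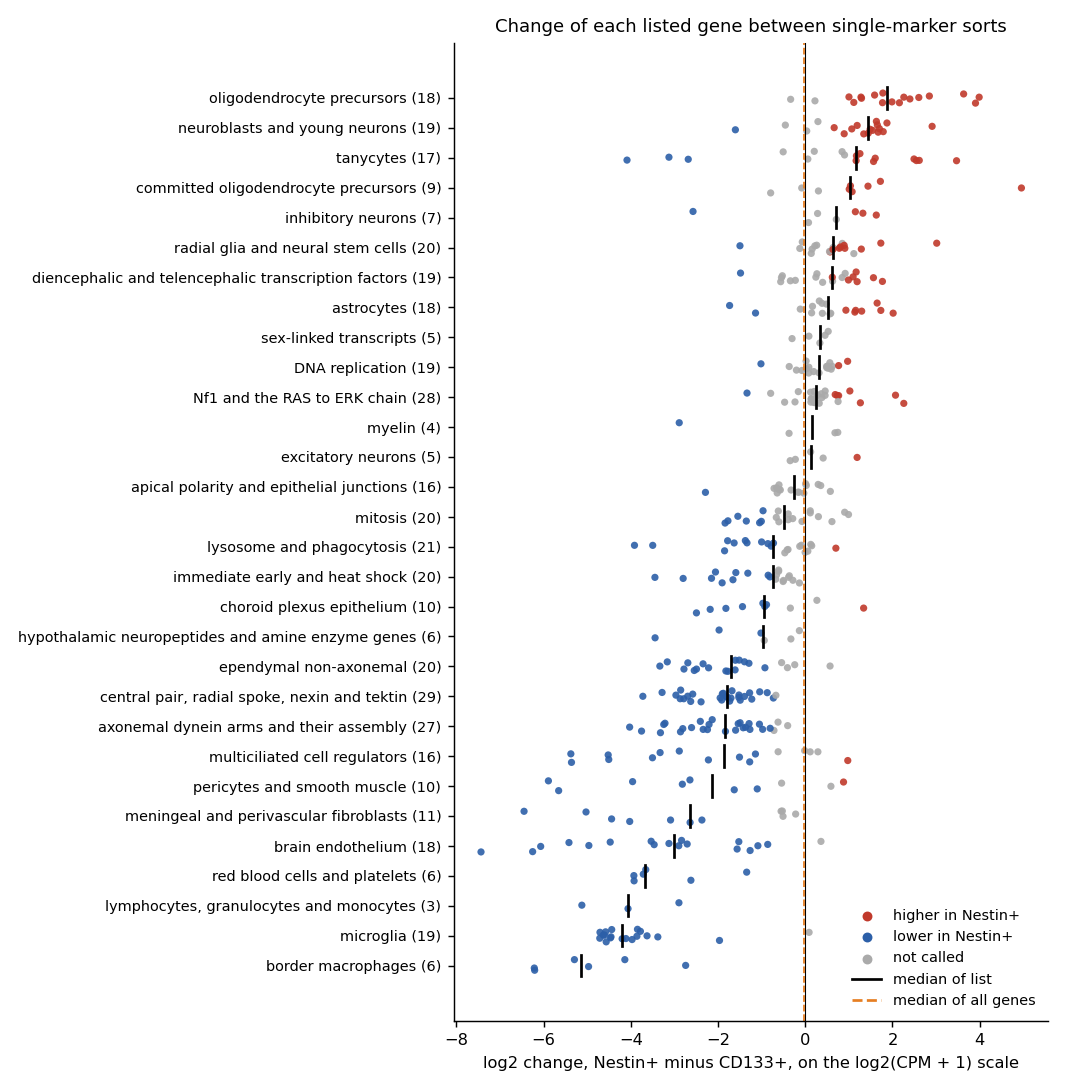
Each point is a tested gene, placed by its log2 change (Nestin+ minus CD133+, log2(CPM + 1) scale, horizontal axis) within its list (rows, number of tested genes in brackets), with called genes in red and blue, a black bar at each list's median and a dashed line at the median of all genes. Vessel, immune and ciliary lists lie left of 0, with medians from -5.13 for border macrophages to -1.69 for ependymal genes, and oligodendrocyte precursors reach 1.88.

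The program that makes multiciliated cells was low in Nestin+ libraries from its regulators to its motors. Of 16 tested regulators 11 were lower, 1 was higher and 4 were not called, with a median of -1.86 against -0.02 for all genes. Deup1, the scaffold of the deuterosome on which the many centrioles are built (chromosome 9, 15559864 to 15627933), stood at 19.9, 10.4 and 14.4 CPM in Nestin+ and at 483, 1113 and 485 CPM in CD133+ libraries. The change was -5.37 ± 0.33 (limma, adjusted p = 3.11e-06), and CD133+ sort 2 was the highest library.

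The other regulators fell into those of the early switch and those of centriole amplification. Mcidas, a coiled-coil protein that starts the multiciliated program together with E2F factors, stood at 5.32, 4.24 and 2.84 CPM against 85.7, 195 and 86.6 CPM (-4.50 ± 0.27). Ccno, a cyclin-like protein needed for centriole amplification, stood at 4.12, 2.44 and 2.84 CPM against 77.2, 138 and 74.0 CPM (-4.52 ± 0.28). The groups of both were separate. Cdc20b, a centriole amplification factor and the neighbour of this pair, stood at 0.447, 0.0979 and 0.370 CPM against 34.2, 101 and 40.8 CPM (-5.36 ± 0.36). The 3 genes lie on the plus strand of chromosome 13, Ccno at 112987802 to 112990777, Mcidas at 112993845 to 113000394 and Cdc20b at 113035111 to 113091195. Myb changed by -3.33 ± 0.22, Trp73, the p73 gene, by -3.50 ± 0.28, Plk4, the kinase that starts centriole duplication, by -2.22 ± 0.23 and Foxj1, the regulator of motile cilia genes, by -2.89 ± 0.29.

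The upstream gene Gmnc and the ciliary transcription factor gene Rfx2 were lower by less, at -1.14 ± 0.26 and -1.27 ± 0.25. Not all factors of this list moved that way. Rfx3, another X-box factor, stood at 65.0, 75.4 and 60.7 CPM in Nestin+ and at 60.5, 66.2 and 58.5 CPM in CD133+ libraries, and E2f4, a partner of Mcidas, at 11.9, 17.5 and 30.5 against 17.3, 18.4 and 20.7 CPM. Their groups overlapped and neither was called (0.11 ± 0.18 and -0.01 ± 0.25). Rfx4, the radial glial member of the family, was the only regulator called higher, at 0.98 ± 0.20, and its call was lost without the block.

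**Figure D2:**
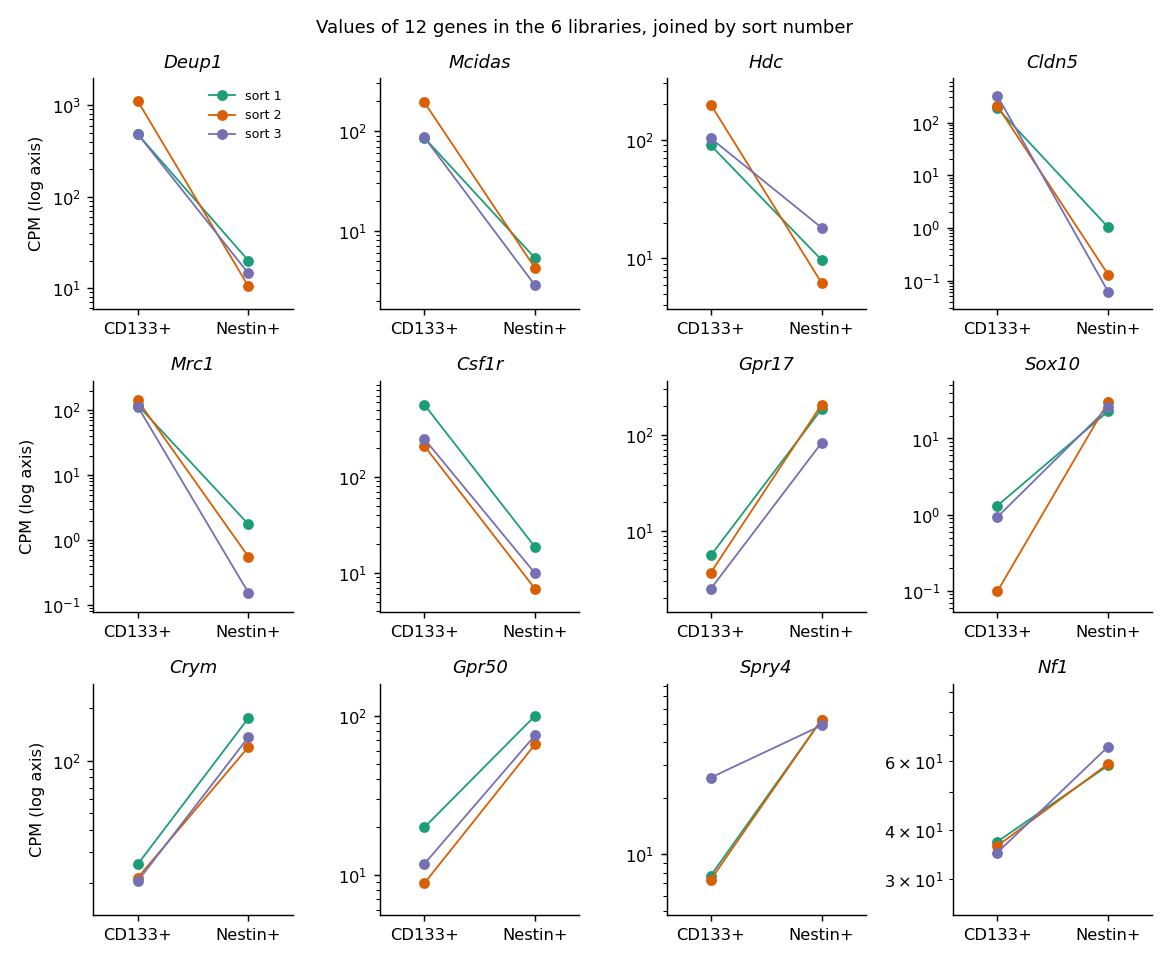
CPM (log axis) of 12 genes in CD133+ and Nestin+ libraries, with the 2 libraries of a sort joined by a line. Deup1, Mcidas, Hdc, Cldn5, Mrc1 and Csf1r go down and Gpr17, Sox10, Crym, Gpr50, Spry4 and Nf1 go up from CD133+ to Nestin+ in all 3 sorts.

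Promoters of the ciliary genes were read for the X-box, the DNA motif of RFX factors, because these genes moved together. RefSeq windows on GRCm38.p6, from 250 bases before to 50 after the start, were matched for 58 of the genes tested in the 3 ciliary lists and for 10601 of all tested genes. The full X-box of 14 bases, searched on both strands, was in 0 of the 58 genes and in 48 (0.453%) of all. The first part of that form alone, GTTGCC on either strand, was in 25 of the 58 (43.1%) and in 1656 (15.6%) of all. By list the short motif was in 8 of 13 regulators (61.5%), 7 of 21 dynein arm genes (33.3%) and 10 of 24 central pair and spoke genes (41.7%). It was also in 4 of 12 endothelial genes (33.3%), in 1 of 12 neuroblast genes (8.33%) and in 0 of 13 microglial and 0 of 13 oligodendrocyte precursor genes. A match is a run of letters in this window and not a site of binding. The windows of Ccno and Mcidas, neighbours with near-equal falls, are shown 5′ to 3′ with the GTTGCC match in capitals. The match begins 219 and 195 bases before the RefSeq start, which for Mcidas is not the gene start given above. They were chosen after the values were seen. The short motif was also in members of these lists that were not called, such as Rfx3, Gas8 and Dnah7a.
Ccno, chr13:112987552-112987851, plus strand: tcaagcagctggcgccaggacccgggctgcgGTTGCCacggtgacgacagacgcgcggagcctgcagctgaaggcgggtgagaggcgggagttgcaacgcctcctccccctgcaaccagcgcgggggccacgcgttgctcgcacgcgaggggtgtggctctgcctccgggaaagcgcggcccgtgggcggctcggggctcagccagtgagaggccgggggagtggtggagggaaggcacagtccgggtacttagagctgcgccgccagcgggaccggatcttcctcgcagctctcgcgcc
Mcidas, chr13:112993618-112993917, plus strand: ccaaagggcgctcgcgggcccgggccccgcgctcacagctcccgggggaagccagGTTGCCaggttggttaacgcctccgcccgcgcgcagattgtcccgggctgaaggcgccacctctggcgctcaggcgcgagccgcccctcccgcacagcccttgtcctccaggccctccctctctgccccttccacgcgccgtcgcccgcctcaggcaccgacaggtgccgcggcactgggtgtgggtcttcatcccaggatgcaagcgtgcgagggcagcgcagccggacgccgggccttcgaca

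Structural genes of the motile axoneme were lower almost throughout. Of 27 tested genes for the dynein arms, the motors that bend the cilium, and for their assembly, 24 were lower, 0 higher and 3 not called (median -1.83). Zmynd10, a dynein assembly factor, stood at 17.2, 16.2 and 13.6 CPM in Nestin+ and at 189, 348 and 168 CPM in CD133+ libraries (-3.75 ± 0.22). Dnah3, an inner arm heavy chain, changed by -4.03 ± 0.32, Dnah12 by -3.22 ± 0.25 and the assembly factor Dnaaf1 by -3.32 ± 0.25. At the other end, Dnah7b and Dnah2 changed by -0.80 ± 0.22 and -1.05 ± 0.24 with overlapping groups, and Ccdc114, Dnah7a and Dnah8 were not called (-0.72 to -0.40). Several of these heavy chains are similar in sequence, and how shared reads were assigned to them is not known here.

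For the central pair, radial spokes, nexin links and tektins, the parts that shape the beat, 28 of 29 tested genes were lower, 0 higher and 1, Gas8, was not called (median -1.80). Rsph1, a radial spoke head gene, stood at 35.7, 30.4 and 38.4 CPM against 273, 542 and 280 CPM (-3.28 ± 0.25). Spag17, a central pair gene, changed by -3.72 ± 0.25, Hydin, which organises the same structure, by -2.86 ± 0.25 and Ccdc65, of the nexin link, by -2.58 ± 0.22. In the summed levels of the 3 ciliary lists CD133+ sort 2 stood above every other library. The summed level of the dynein list was 345, 393 and 387 CPM in Nestin+ and 1195, 2593 and 1241 CPM in CD133+ libraries. No Nestin+ library was near 0 in these sums.

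Ependymal genes outside the axoneme followed with 16 of 20 lower, 0 higher and 4 not called (median -1.69). Tmem212 changed by -3.33 ± 0.27, Nme9 by -3.16 ± 0.28, the cytoplasmic dynein light chain Dynlrb2 by -2.49 ± 0.25 and Meig1 by -2.54 ± 0.25. Aqp4, the water channel of astrocyte endfeet and ependyma, was not called, at 395, 144 and 74.9 CPM in Nestin+ and 196, 53.7 and 122 CPM in CD133+ libraries, and neither was Clu. Of 20 genes listed for the choroid plexus, the epithelium that secretes cerebrospinal fluid, 10 were tested and the defining genes Ttr and Kl were not analysed here. Lower in Nestin+ were 7 of these 10, led by the folate receptor gene Folr1 (-2.49 ± 0.26), and 4 without the block. Enpp2, autotaxin, went the other way, at 195, 181 and 179 CPM against 71.2, 66.2 and 80.5 CPM (1.34 ± 0.18).

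Vessel and mesenchymal transcripts held several of the largest falls. Of 30 genes listed for endothelium 18 were tested. Of those, 17 were lower, 0 higher and 1, the lipid transporter gene Mfsd2a, was not called (median -3.01). Pecam1, which encodes CD31, stood at 0.412, 0.326 and 1.42 CPM in Nestin+ and at 48.3, 68.0 and 103 CPM in CD133+ libraries (-5.42 ± 0.25). The summed endothelial level was 318 to 462 CPM in Nestin+ and 1840 to 2886 CPM in CD133+ libraries, and carriers shared with glia, such as Slc2a1 with 69.8 to 146 CPM, made up part of the Nestin+ sum. Among 10 genes of pericytes and smooth muscle, 7 were lower, 1 was higher and 2 were not called (median -2.14). Pdgfrb, the receptor of pericytes, stood at 17.2, 17.5 and 31.5 CPM against 122, 93.8 and 228 CPM (-2.64 ± 0.19). Its CD133+ values were highest in sort 3, as were those of Rgs5 and Vtn. Notch3 was called higher (0.88 ± 0.23), but not without the block, without sort 2 or with all 9 libraries in the fit.

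Of 11 fibroblast genes, 7 were lower, 0 higher and 4 were not called (median -2.64). Col1a1, a chain of collagen I, stood at 5.67, 21.4 and 5.37 CPM in Nestin+ and at 203, 336 and 480 CPM in CD133+ libraries (-5.03 ± 0.35). Mgp, the matrix Gla protein, changed by -4.44 ± 0.39 and Col6a1 by -4.02 ± 0.25, whereas Islr and Fbln1 were not called, at -0.51 ± 0.24 and -0.55 ± 0.21.

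Immune transcripts were lower as well. All 6 tested of 12 listed genes of border macrophages, the macrophages of meninges and vessel walls, were lower (median -5.13). So were 18 of 19 microglial genes (median -4.20). Of 18 genes listed for other leukocytes only 3 were tested, and all were lower: Laptm5, Rac2 and Coro1a (median -4.06). Microglia express those last 3 as well. Csf1r, the growth factor receptor on which microglia depend, stood at 18.7, 6.87 and 9.94 CPM in Nestin+ and at 567, 211 and 249 CPM in CD133+ libraries (-4.71 ± 0.18). Sort 1 was highest in both groups. C1qb, a complement subunit, changed by -4.61 ± 0.18, Fcrls by -4.71 ± 0.21 and the protease gene Ctss by -4.63 ± 0.19. Sall1, a microglial identity factor also used by neural progenitors, was not called, at 40.1, 30.8 and 48.7 CPM against 58.7, 25.6 and 33.1 CPM.

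Border macrophage transcripts were low in Nestin+ libraries. Mrc1, the mannose receptor (chromosome 2, 14229392 to 14332057), stood at 1.75, 0.554 and 0.154 CPM against 120, 141 and 114 CPM (-6.20 ± 0.28). Ms4a7 was at the value of 1 read in each Nestin+ library and at 21.8, 18.2 and 12.7 CPM in CD133+ libraries. The summed level of the 6 genes was 3.06 to 8.10 CPM in Nestin+ and 358 to 501 CPM in CD133+ libraries, and that of the 19 microglial genes 137 to 272 and 1456 to 4497 CPM.

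Lysosomal and phagocytic genes, which all cells use and which are abundant in macrophages, were lower in 11 of 21 cases and higher in 1 (median -0.73). Cd68, a macrophage lysosome protein, changed by -3.92 ± 0.21 and Ctsh, a cathepsin, by -3.50 ± 0.25. Ctsh peaked in CD133+ sort 2, at 256, 425 and 249 CPM against 28.8, 20.2 and 29.1 CPM, whereas Cd68 and the microglial genes peaked in CD133+ sort 1. Lgmn and Ctsz were lower by 1.85 ± 0.24 and 1.63 ± 0.19, and Psap and Laptm4a were not called. Without the block, 7 were lower, and 7 without sort 1. Microglial levels differed in the same direction, and their part in the lysosomal counts was not tested.

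**Figure D3:**
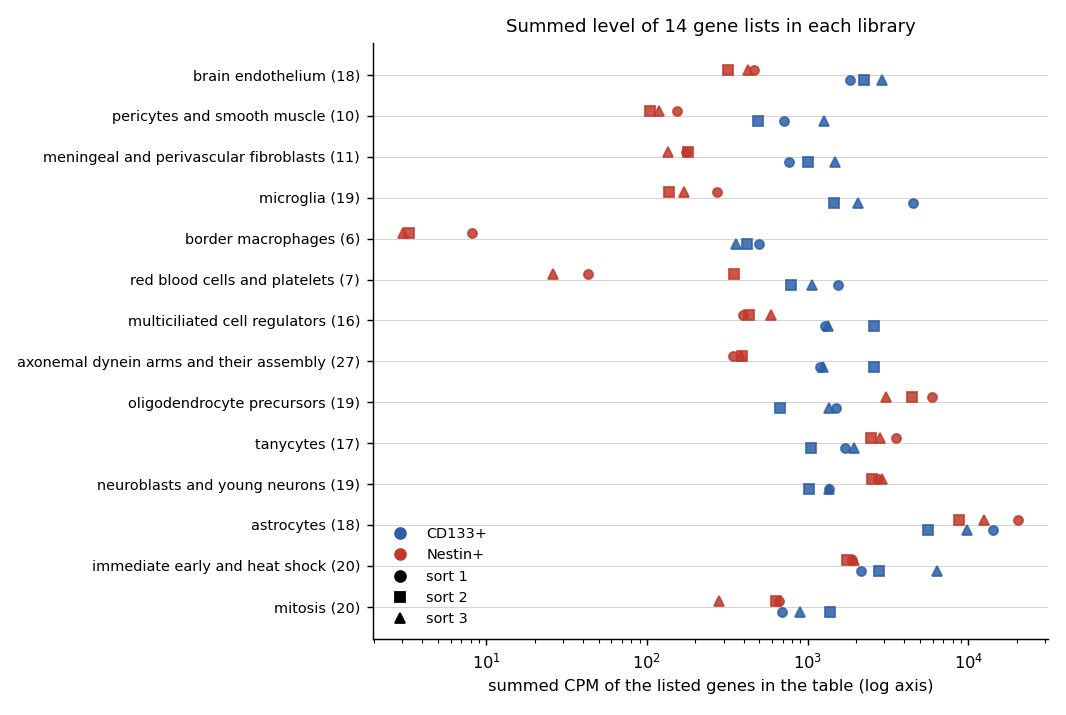
Summed CPM (log axis) of the analysed genes of 14 lists in each library, with Nestin+ in red, CD133+ in blue and sorts 1, 2 and 3 as circles, squares and triangles. Border macrophage genes sum to at most 8.10 CPM in Nestin+ libraries and to at least 358 CPM in CD133+ libraries, and the red blood cell sum of Nestin+ sort 2, at 348 CPM, stands above the other Nestin+ libraries.

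Red blood cell and platelet genes were lower for all 6 tested members (median -3.68), with 1 library apart. Hba-a2, an alpha globin, stood at 13.2, 121 and 10.04 CPM in Nestin+ and at 583, 283 and 406 CPM in CD133+ libraries (-3.93 ± 0.86), so that Nestin+ sort 2 held the most globin of its group. Hbb-bs, a beta globin, had the same order of libraries. The paired alpha globin copies are nearly the same in sequence, so their reads may be split between Hba-a1 and Hba-a2. Only 2 of the 6 genes were called without sort 1, without sort 3 or with median centring.

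Oligodendrocyte precursor genes were the highest list in Nestin+ cells by median, at 1.88, with 16 of 18 tested genes higher, 0 lower and 2 not called. Pdgfra, the receptor for the growth factor that keeps precursors dividing (chromosome 5, 75152292 to 75198215), stood at 427, 521 and 250 CPM in Nestin+ and at 17.2, 27.0 and 31.8 CPM in CD133+ libraries (3.90 ± 0.28). Sox10, the lineage's SOX factor, stood at 22.7, 30.1 and 25.5 CPM against 1.31, 0.0987 and 0.932 CPM (3.99 ± 0.32). For both genes the groups were far apart, and Sox10 in CD133+ sort 2 was at 3 reads. Lhfpl3 changed by 3.63 ± 0.24 and Bcan, the proteoglycan brevican, by 2.60 ± 0.28. The summed level of the list was 5985, 4458 and 3074 CPM in Nestin+ and 1505, 671 and 1351 CPM in CD133+ libraries. Cacng4 (0.22 ± 0.19) and Ppfibp1 (-0.33 ± 0.26) were not called.

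Genes of later steps of the lineage were also measured. Of 9 tested genes of committed precursors 6 were higher, 0 lower and 3 were not called (median 1.04). Besides Gpr17, these included Bcas1 (1.72 ± 0.24), Myrf, the transcription factor of myelin genes (1.44 ± 0.27), and Tcf7l2, a WNT effector of differentiation (1.04 ± 0.18). Myrf stood at only 2.40, 4.73 and 3.27 CPM in Nestin+ and at 0.200, 0.559 and 1.23 CPM in CD133+ libraries. Of 11 listed myelin genes 4 were tested, and Mag and Mog were not analysed here. Mbp (0.68 ± 0.26) and Cnp (-0.37 ± 0.24) were not called and 1 gene, Mal, was lower (-2.89 ± 0.34).

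Radial glial and astrocytic genes were higher on balance, with smaller changes and fewer calls. Among 20 genes of radial glia and neural stem cells 9 were higher, 1 lower and 10 not called (median 0.64). Slc1a3, the glutamate transporter of radial glia, stood at 6128, 3636 and 4050 CPM in Nestin+ and at 3153, 1012 and 1949 CPM in CD133+ libraries (1.29 ± 0.26), and Fabp7, a fatty acid binding protein, changed by 1.73 ± 0.35. Both calls were lost without the block, under which 3 list members were higher, and 4 were higher without sort 2. Hes5, a NOTCH target, stood at 41.8, 53.2 and 284 CPM in Nestin+ and at 16.3, 3.94 and 13.7 CPM in CD133+ libraries (3.01 ± 0.45). Nestin+ sort 3 was more than 5 times the other Nestin+ libraries, and the call was lost without sort 2. Pax6, a progenitor transcription factor, was the 1 lower member, at 11.03, 5.70 and 11.8 CPM against 33.1, 16.5 and 37.9 CPM (-1.50 ± 0.22), and Vim and Dbi were not called.

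Of 18 astrocyte genes 7 were higher, 2 lower and 9 not called (median 0.53), and without the block 2 were higher and 1 lower. Fgfr3, a growth factor receptor of astrocytes and tanycytes, stood at 259, 213 and 434 CPM in Nestin+ and at 81.4, 42.6 and 101 CPM in CD133+ libraries (2.02 ± 0.19). Slc1a2, the main astrocyte glutamate transporter, changed by 1.73 ± 0.24. Gfap, the astrocyte intermediate filament, went the other way, at 70.5, 27.2 and 48.9 CPM against 275, 83.9 and 157 CPM (-1.73 ± 0.18). In both groups Gfap was highest in sort 1 and lowest in sort 2, and within each sort the Nestin+ library was lower. Gjb6, a gap junction gene, was lower by 1.14 ± 0.29, but not without the block or without sort 2.

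Tanycyte genes divided. Of 17 tested, 9 were higher, 3 lower and 5 not called (median 1.17). Crym, a thyroid hormone binding protein (chromosome 7, 120186380 to 120202111), stood at 175, 120 and 136 CPM in Nestin+ and at 25.5, 21.4 and 20.4 CPM in CD133+ libraries (2.61 ± 0.18, limma adjusted p = 7.52e-06). Gpr50, an orphan receptor related to melatonin receptors (chromosome X, 71663667 to 71669257), stood at 99.996, 66.1 and 75.4 CPM against 19.8, 8.81 and 11.7 CPM (2.55 ± 0.20). Col23a1, a membrane collagen, stood at 125, 155 and 104 CPM against 24.5, 17.5 and 23.3 CPM (2.49 ± 0.22). The groups of all 3 genes were separate, with CD133+ levels above the level of 3 reads. Frzb, a secreted WNT antagonist, changed by 3.47 ± 0.28, Fgf10 by 1.25 ± 0.26 and Rax, the homeobox factor of the tanycyte layer, by 1.17 ± 0.26.

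The 3 lower members were Slc17a8, Slco1c1 and Adm. Slc17a8, a vesicular glutamate transporter, stood at 3.09, 1.60 and 0.771 CPM in Nestin+ and at 30.0, 98.4 and 28.9 CPM in CD133+ libraries (-4.09 ± 0.38), with its highest value in CD133+ sort 2, as for the ciliary genes. Slco1c1, a thyroid hormone carrier that is also on the endothelial list, changed by -3.12 ± 0.26. Adm, the vasodilator adrenomedullin, stood at 1.17, 0.587 and 1.08 CPM against 4.14, 9.86 and 32.9 CPM (-2.68 ± 0.44). Endothelial levels moved the same way as Slco1c1, and their part in its change was not tested.

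Genes of young neurons were higher in 15 of 19 tested cases, lower in 1 and not called in 3 (median 1.45). Without the block 10 were higher, and 4 when Nestin+ sort 2 was left out as well. Dcx, doublecortin of migrating neuroblasts (chromosome X, 143855842 to 143933311), stood at 30.1, 33.8 and 17.9 CPM in Nestin+ and at 3.51, 1.68 and 3.01 CPM in CD133+ libraries (2.91 ± 0.31). Sox11, a factor of neuronal commitment, changed by 1.54 ± 0.20 and the neurofilament gene Ina by 1.87 ± 0.27. Cd24a, a surface protein of both neuroblasts and ependymal cells, was the lower member, at 70.7, 80.0 and 66.0 CPM against 166, 368 and 176 CPM (-1.60 ± 0.22). Stmn2, a marker of neurons that extend axons, and Celf4 were not called.

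Few of the listed markers of neuronal subtypes were tested. The shares called over all genes were 9.30% higher and 17.2% lower. Of 17 genes listed for inhibitory neurons 7 were tested: Dlx1 (1.63 ± 0.26), Gsx1 (1.15 ± 0.24) and Dlx6os1 (1.32 ± 0.31) were higher and Calb2, calretinin, was lower (-2.57 ± 0.34). Dlx6os1 lost its call without the block and without sort 2. Of 5 tested excitatory genes 1, the mammillary factor gene Foxb1 (1.19 ± 0.32), was higher, though not without the block. Among 6 tested genes of neuropeptides and amines, 3 were lower and 0 higher. Hdc, the enzyme that makes histamine (chromosome 2, 126593667 to 126619299), stood at 9.69, 6.19 and 18.1 CPM in Nestin+ and at 89.9, 199 and 103 CPM in CD133+ libraries (-3.44 ± 0.36). Its highest library was CD133+ sort 2, as in the ciliary lists. Penk, an enkephalin precursor, stood at 1.44, 1.20 and 1.17 CPM against 5.45, 8.80 and 10.2 CPM (-1.98 ± 0.28). Pomc (-1.02 ± 0.32) lost its call under 6 of the settings that kept all sorts.

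Transcription factors of brain regions showed 7 of 19 higher, 1 lower and 11 not called (median 0.62), and 4 higher without sort 2. By comparison, 9.30% of all genes were higher and 17.2% lower. Nkx2-1, which patterns the ventral hypothalamus, stood at 5.98, 14.1 and 15.6 CPM in Nestin+ and at 2.28, 3.48 and 3.61 CPM in CD133+ libraries (1.56 ± 0.27). Its groups were separate. Six6 (0.99 ± 0.25) and Foxb1 were higher and Fezf1, a factor of the ventromedial hypothalamus, was lower (-1.48 ± 0.30). Six6 lost its call without sort 2 or sort 3.

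The RAS to ERK chain, which carries growth factor signals and is held down by the GTPase-activating protein neurofibromin, had 7 of 28 genes higher, 1 lower and 20 not called (median 0.25). Among all genes 9.30% were higher and 17.2% lower. Nf1, the gene of neurofibromin (chromosome 11, 79339693 to 79581612), stood at 58.5, 59.1 and 65.4 CPM in Nestin+ and at 37.4, 36.4 and 35.0 CPM in CD133+ libraries (0.73 ± 0.19, limma adjusted p = 0.0148). The 3 libraries of each group lay within 8 CPM of each other. The other 6 higher genes also encode negative regulators of the chain, and 5 more of these on the list, Rasa1, Rasa2, Rasal2, Spred2 and Dusp6, were not called. Spry4, a Sprouty inhibitor, stood at 52.5, 52.7 and 49.0 CPM against 7.71, 7.33 and 25.8 CPM (2.07 ± 0.33), with CD133+ sort 3 above the other CD133+ libraries. Spred3 changed by 2.26 ± 0.39, Spry1 by 1.26 ± 0.31, Spry2 by 1.02 ± 0.20, Rasa3 by 0.77 ± 0.19 and Spred1 by 0.69 ± 0.22. Among the GTPases, Rras was lower (-1.34 ± 0.27) and Nras was not called (0.13 ± 0.24). The ERK phosphatase gene Dusp6 averaged 99.8 CPM in Nestin+ and 96.7 CPM in CD133+ libraries (0.14 ± 0.20). Without the block 3 members were higher, and the calls of Spry1 and Spry2 were among those lost. Spry4 and Spred3 kept their calls in that fit, and Nf1, Rasa3 and Spred1 did not all keep theirs. The call of Spry1 was also lost without sort 2.

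Cell-cycle genes did not move as a block. Of 20 mitosis genes 7 were lower, 0 higher and 13 not called (median -0.50), and of 19 replication genes 2 were higher, 1 lower and 16 not called (median 0.32). Over all genes 9.30% were higher and 17.2% lower, so the replication counts were near or under the background. Cdc20, the activator of the anaphase-promoting complex, stood at 13.5, 10.5 and 11.3 CPM in Nestin+ and at 33.6, 59.2 and 38.3 CPM in CD133+ libraries (-1.77 ± 0.25). Top2a, the topoisomerase of dividing cells, stood at 128, 119 and 32.4 CPM against 180, 498 and 262 CPM (-1.84 ± 0.37), and Cdk1, the mitotic kinase, changed by -1.55 ± 0.25. Mki67, which encodes the Ki-67 protein of cycling cells, was not called, at 42.6, 50.3 and 14.5 CPM against 14.2, 11.5 and 22.2 CPM (0.99 ± 0.41). Its Nestin+ library was the higher one in sorts 1 and 2 and the lower one in sort 3.

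Nestin+ sort 3 was low for both lists. The summed mitosis level was 665, 636 and 281 CPM in Nestin+ and 693, 1374 and 895 CPM in CD133+ libraries, and the replication level 1222, 904 and 580 CPM against 778, 593 and 771 CPM. Without sort 3, 8 replication genes were higher and 2 mitosis genes higher and 5 lower. Without sort 2 the mitosis list had 2 lower calls, those of Top2a and Ccnb2 being lost, and without sort 1 it had 11. Ccne2 (0.97 ± 0.29) and Tyms (0.77 ± 0.24) were the higher replication genes and Cdt1 (-1.02 ± 0.25) the lower one, and all 3 calls were lost without the block. The CD133+ library with the most mitotic transcript, sort 2, was also the one with the most ciliary transcript, and the part of ciliated cells in the mitotic counts was not tested.

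**Figure D4:**
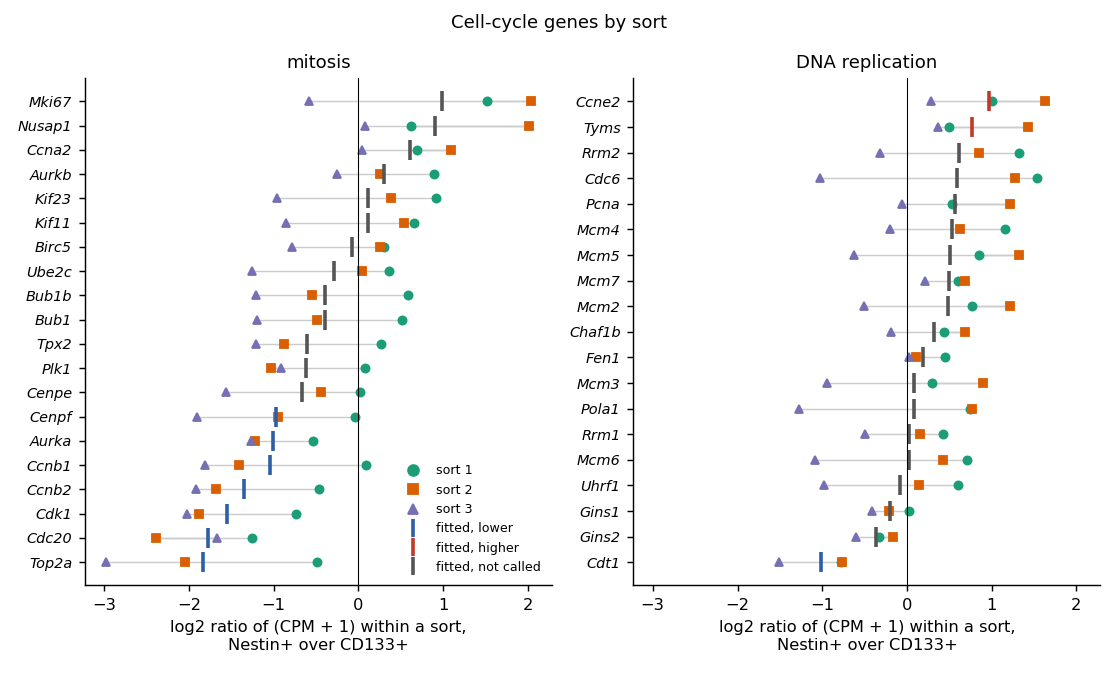
Log2 ratio of CPM + 1, Nestin+ over CD133+, within sorts 1 (circles), 2 (squares) and 3 (triangles) for 20 mitosis and 19 replication genes, with the fitted change as a vertical tick in blue (lower), red (higher) or dark grey (not called). Sort 3 is the lowest for most genes, and Top2a runs from -0.49 in sort 1 to -2.98 in sort 3 while Mki67 runs from -0.58 in sort 3 to 2.03 in sort 2.

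Immediate early and heat shock genes, which respond within minutes to handling and stress, were lower in 10 of 20 cases and higher in 0 (median -0.74), and lower in 5 without the block. CD133+ sort 3 stood apart. Fos was listed at 258, 400 and 2311 CPM in CD133+ and at 225, 496 and 600 CPM in Nestin+ libraries and was not called (-0.61 ± 0.36). The summed level was 1766 to 1955 CPM in Nestin+ and 2161, 2784 and 6407 CPM in CD133+ libraries. Without sort 3, 8 members were lower and 1 was higher. Atf3 (-3.45 ± 0.45) and the chaperone gene Hsph1 (-1.59 ± 0.23) were lower, the latter at 59.2, 60.3 and 47.5 CPM against 115, 263 and 158 CPM, and Jun (-1.32 ± 0.20) lost its call without the block.

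Apical polarity and junction genes were called no more often than all genes, of which 9.30% were higher and 17.2% lower. Of 16 tested genes 1, the junction scaffold gene Tjp3, was lower (-2.29 ± 0.36), 0 were higher and 15 were not called (median -0.25), with 3 lower without sort 1 or without sort 3. Ezr, a linker of microvilli to actin, stood at 247, 175 and 240 CPM in Nestin+ and at 328, 398 and 276 CPM in CD133+ libraries, a difference of -0.60 ± 0.22 that missed the threshold at a limma adjusted p of 0.0777. Transcripts of Xist and of the Y-linked gene Ddx3y were found in all 6 libraries, at 25.3 to 92.3 CPM and 12.6 to 56.0 CPM, and both were lowest in sort 1 within each group. Of 5 sex-linked genes 0 were called, against 1 without sort 1.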

How the data were processed

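RNA from 3 Nestin+ and 3 CD133+ sorts was compared, and the 3 double-positive libraries were left out. The mm10 build and the tools STAR 2.5.3a, bcl2fastq, limma and Partek 8.0 stand in the submitters' processing notes, with no role given. The counting method and its use of strand are not given in the sources used here. Antisense and overlapping genes are therefore uncertain. The values that the authors deposited for 18329 genes were taken as CPM, a unit inferred from the values. The sum of all rows was 70.4% to 87.3% of that expected for CPM, and 42.3% to 57.1% of low values were whole reads within 0.02 reads, so no count test was run. The floor of 3 reads covers counting error only. The authors' second deposited table gave p-values and ratios of group means and was used only as their result.

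Genes that reached 1 CPM in at least 3 of 6 libraries were kept, and 2613 were removed. Among all rows, 24 symbols altered into dates were not named. log2(CPM + 1) was fitted in limma 3.58.1 (R 4.3.3) on sort number and group with trended, robust variances (2 residual degrees of freedom, median prior 8.21), and p-values were adjusted by Benjamini-Hochberg at 0.05. The comparison was defined as paired by sort number. Same-numbered libraries deviated from their group means with r = 0.588, 0.371 and 0.206 across genes, against -0.489 to 0.202 for different numbers. The value of sort 3 was close to that of Nestin+ sort 2 with CD133+ sort 3 (0.202), so it does not mark sort 3 as a pair. Deviations within a group sum to 0, so the negative values carry no separate weight. The procedure was also run on data simulated from its own fitted model with normal noise. Such data cannot test the pairing or the effect of a single outlying library. Positions are from GENCODE M21 (GRCm38, as mm10), in which 15641 of 15716 symbols were found, and promoters from RefSeq.

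The members, lists and tests were chosen with earlier results of these data known. The text was to name Prom1, Nes, the 15 largest rises and falls among called genes with separate groups, the same sign in each sort and a higher group averaging 10 CPM or more, up to 4 called members in each direction per list by smallest p, and 2 not called. Some of these genes are not reported here. Other names, such as Foxj1, Cdc20b, Trp73, Plk4, Gmnc, Rfx2, Nf1, Mki67 and Ms4a7, were chosen after their values were seen. Alternatives covered the block, pseudocount, filter, scaling, the double-positive libraries, the variance prior and each sort or library left out.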

Additional observations from a re-analysis of the deposited data

How the results depend on the processing

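All 1462 higher and 2700 lower genes kept their direction in every fit where they were called. Without the replicate block 639 genes were higher, all among those called in the paired fit, and with median centring 2201 were higher. Leaving out both libraries of 1 sort gave 691 to 1359 higher and 1802 to 2542 lower genes, fewest without sort 2. Without the block and without any 1 library fewest genes were called without Nestin+ replicate 2 (300 higher, 1246 lower), then without CD133+ replicate 2 (330 and 1365), Nestin+ replicate 3 (422 and 1472), CD133+ replicate 3 (432 and 1479), CD133+ replicate 1 (722 and 1987) and Nestin+ replicate 1 (834 and 1837). Under those fits the lowest higher counts were 9 against 16 for oligodendrocyte precursor genes, 2 against 6 for committed precursors and 4 against 15 for young neurons, each without Nestin+ replicate 2, and the ciliary regulators had at least 8 lower calls against 11. Pseudocounts of 0.1 and 5, no filter, a filter of 5 CPM, all 9 libraries in the fit and a prior without trend gave counts within 1.5 times, at 989 to 1437 higher and 2124 to 2696 lower. Together with the fit without the block, median centring and quantile normalization, these are the settings that kept all sorts. Under them 1617 values of the named genes kept direction and call, 34 lost a call, 7 gained 1 and 9 that were not called moved. When 1 sort or library was left out the numbers were 1442, 177, 15 and 49. Medians of the inhibitory, excitatory, myelin and sex-linked lists changed sign under some settings. With 3 pairs no exact test of a single gene can pass 0.05, and levels under 3 reads are not distinguishable from each other at this depth.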
